A study of Mus musculus with 8 samples.

Results

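The unfolded protein and integrated stress response genes described here are 42 mouse genes, each taken by its symbol from a table of read counts that lists 53700 genes. All 42 had enough reads to be tested, among 13933 tested genes. They form an ER arm of 22 genes (chaperones and folding enzymes, components of ER-associated degradation, and the stress sensors with their transcription factors) and an ATF4 arm of 20 genes (ATF4, CHOP and related transcription factors, feedback and stress regulators, amino acid and one-carbon enzymes, and amino acid transporters). The question addressed was how each arm differed between oxygen levels and between cells with and without the hydroxylase FIH, and how the arms compared with each other.

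Proteins of the secretory pathway fold in the endoplasmic reticulum (ER) with the help of chaperones, and those that misfold are returned to the cytosol and degraded. When unfolded proteins accumulate, the sensors IRE1α (Ern1), ATF6 (Atf6) and PERK (Eif2ak3) are released from the chaperone BiP (Hspa5), and spliced XBP1 and cleaved ATF6 raise the transcription of chaperone and degradation genes. PERK also phosphorylates the translation factor eIF2α, as do kinases that sense a shortage of amino acids or heme, or viral RNA. Protein synthesis then slows in general while ATF4 is translated, and ATF4, partly together with CHOP (Ddit3), raises genes of amino acid supply, of feedback on eIF2α and of cell death. Severe hypoxia is known to engage PERK and ATF4 in tumor cells. Counts per gene show neither the splicing of Xbp1 nor the translation of Atf4, so that all values below are levels of RNA.

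The cells were Lewis lung carcinoma (LLC) cells, a mouse lung tumor line. WT cells and cells lacking FIH (FIH-KO), the asparaginyl hydroxylase encoded by Hif1an that restrains hypoxia-inducible factors, were cultured at 21% O2 (normoxia) or 1% O2 (hypoxia) for 16 h. Each of the 4 groups, WT normoxia, WT hypoxia, FIH-KO normoxia and FIH-KO hypoxia, was represented by 2 libraries. FIH-KO cells were made with Cas9 protein and a guide RNA against exon 2 of Hif1an and were grown from single cells, so that the loss of FIH and other properties of the selected cells cannot be told apart. The sources used here do not say whether the 2 libraries of a group came from separate cultures, and p-values therefore measure only the spread between these libraries, which may be technical.

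The libraries held 14519731 to 18177016 counted reads. Values are given as CPM, the reads of a gene per fixed total of reads after scaling by trimmed mean of M values (TMM), in the order replicate 1 and replicate 2. Hif1an itself stood at 82.3 to 84.6 CPM in WT normoxia, 84.0 to 90.2 CPM in WT hypoxia, 34.8 to 37.7 CPM in FIH-KO normoxia and 45.5 to 51.0 CPM in FIH-KO hypoxia, so that its RNA was lower in FIH-KO libraries but not absent (log2 fold change -1.20, adjusted p = 3.09e-05 in normoxia and -0.85, adjusted p = 0.000314 in hypoxia, by the quasi-likelihood test of edgeR with Benjamini-Hochberg adjustment, used throughout). Of 10 known hypoxia-induced genes, 10 rose with hypoxia in WT and 9 in FIH-KO. The keratins Krt8 and Krt18 were present at 104 CPM or more in every library, whereas the epithelial markers Epcam and Cdh1 were at or near 0 (at most 0.0683 CPM). Krt7 stood at 0 to 0.714 CPM and Krt19 at 0.652 to 14.7 CPM. The mesenchymal genes Vim, Fn1 and Cdh2 summed to 4350 to 5100 CPM in WT normoxia and 5520 to 5970 in WT hypoxia. In FIH-KO they summed to 8190 to 8990 CPM in normoxia and 9150 to 11000 in hypoxia. Their part in the differences between genotypes was not tested. Of 5 leukocyte markers, 2 (Cd3e and Adgre1) were at 0 in all 8 libraries, and Ptprc reached at most 0.205 CPM. Cd68 stood at 2.63 to 7.18 CPM. Lyz2 stood at 0.257 and 0.533 CPM in WT normoxia, 0.336 and 0.137 in WT hypoxia, 4.88 and 5.99 in FIH-KO normoxia, and 1.87 and 4.95 in FIH-KO hypoxia. The 5 summed to 2.96 to 3.73 CPM in WT normoxia, 5.49 to 6.55 in WT hypoxia, 10.1 to 10.3 in FIH-KO normoxia and 8.14 to 9.06 in FIH-KO hypoxia, higher in FIH-KO, and their part in the differences between genotypes was not tested. The red cell markers Hba-a1 and Hbb-bs were at 0 in all libraries. In bulk RNA a change in RNA per cell and a change in the share of cells that express a gene cannot be told apart.

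Some promoters of each arm held stress response elements, and these were largely different between the arms. Windows of 300 bases, from 250 bases before to 50 bases after the start of each gene's canonical transcript in GENCODE M39 (build GRCm39), were searched on both strands. The ER stress element ERSE, bound by ATF6 together with NF-Y, was taken as CCAAT, any 9 bases and CCACG. ERSE-II was taken as ATTGG, any base and CCACG. The unfolded protein response element UPRE, bound by XBP1 and ATF6, was taken as TGACGTGG. The C/EBP-ATF response element CARE, bound by ATF4 with a C/EBP partner, was taken as TGATGNAA, where N is any base. The core of the hypoxia response element (HRE), bound by hypoxia-inducible factors, was taken as ACGTG or GCGTG. The UPRE contains an HRE core, and ERSE and ERSE-II can overlap one.

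An exact ERSE was present in 8 of the 22 ER arm windows (36.4%), those of Hspa5, Hsp90b1, Calr, Canx, Pdia6, Dnajc3, Creld2 and Syvn1, in none of the 20 ATF4 arm windows and in 15 of the 11622 windows of all tested protein-coding genes (0.129%). An exact ERSE-II was present in 4 ER arm windows (18.2%), those of Dnajb11, Herpud1, Hyou1 and Manf, in no ATF4 arm window and in 0.112% of all windows. CARE was present in 4 ATF4 arm windows (20%), those of Ddit3, Atf3, Chac1 and Ppp1r15b, in 1 ER arm window, that of Herpud1, and in 2.25% of all windows. UPRE was found only in the Hyou1 window among the members and in 0.903% of all windows. The HRE core was common everywhere, in 77.3% of ER arm windows, 75.0% of ATF4 arm windows and 62.5% of all windows. A match is a description of these letters, not a shown binding site, and a window without a match says only that the letters are not in that window. With start sites from RefSeq, an alternative chosen after seeing the data, 19 ER arm and 18 ATF4 arm genes had a window (build GRCm38). The 8 ERSE genes were the same, and the 4 ATF4 arm genes with a CARE were Atf3, Chac1, Trib3 and Asns. ERSE-II was found in 2 ER arm genes, Dnajb11 and Herpud1, and UPRE in no member. Members without a RefSeq window could not be searched, but Ddit3 had a window and no CARE in it.

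The following stretches show the elements in some of the members with a match, to let the ERSE of the chaperone genes be set against the CARE of the stress regulators. The genes shown all rose with hypoxia in WT. Several members with a match that are not shown did not, among them Calr (ERSE, log2 fold change -0.30) and Ppp1r15b (CARE, 0.035). Each is written 5′ to 3′ along the strand of the gene with the matched letters in capitals. Positions are in GRCm39. Hspa5 lies at chr2:34662022-34662070 on the plus strand (82 to 34 bases before the start), Hsp90b1 at chr10:86541382-86541535 on the minus strand (157 to 4 before), Syvn1 at chr19:6096547-6096595 on the plus strand (59 to 11 before), Herpud1 at chr8:95112930-95113030 on the plus strand (107 to 7 before) and Hyou1 at chr9:44290643-44290772 on the plus strand (130 to 1 before). Ddit3 lies at chr10:127126346-127126383 on the plus strand (214 to 177 before), Atf3 at chr1:190915618-190915655 on the minus strand (118 to 81 before) and Chac1 at chr2:119181515-119181552 on the plus strand (174 to 137 before). In Hspa5 and Syvn1 the capitals mark an ERSE, in Hsp90b1 an ERSE in each orientation, in Herpud1 a CARE followed by an ERSE-II, and in Hyou1 a UPRE that overlaps an ERSE-II, followed by a further ERSE-II. In Ddit3, Atf3 and Chac1 they mark a CARE read on the opposite strand, with the same 8 letters in all 3 genes and in Herpud1.
Hspa5: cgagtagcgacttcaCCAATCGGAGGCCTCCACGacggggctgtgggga
Hsp90b1: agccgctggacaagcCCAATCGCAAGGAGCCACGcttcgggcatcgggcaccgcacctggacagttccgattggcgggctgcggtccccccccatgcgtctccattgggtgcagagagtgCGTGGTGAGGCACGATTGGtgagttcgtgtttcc
Syvn1: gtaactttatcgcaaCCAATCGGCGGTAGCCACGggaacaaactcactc
Herpud1: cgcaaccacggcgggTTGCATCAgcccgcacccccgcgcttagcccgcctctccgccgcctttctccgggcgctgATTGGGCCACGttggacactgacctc
Hyou1: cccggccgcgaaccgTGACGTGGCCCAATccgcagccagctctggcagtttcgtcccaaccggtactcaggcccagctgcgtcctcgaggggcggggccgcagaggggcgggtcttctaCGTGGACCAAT
Ddit3: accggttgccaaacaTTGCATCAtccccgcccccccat
Atf3: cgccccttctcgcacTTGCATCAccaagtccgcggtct
Chac1: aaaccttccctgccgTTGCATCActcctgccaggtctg

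To compare levels between genes, mean CPM were divided by the length of each gene's merged exons in GENCODE M39. In WT normoxia the highest levels of the ER arm were those of Calr (237 CPM per kb), Hspa5 (187), Pdia3 (184) and Hsp90b1 (183), and the last 3 of these did not differ beyond the spread between the 2 libraries of Hspa5. Phgdh (149 CPM per kb) and Atf4 (145) were highest in the ATF4 arm. Ddit3 (0.642 CPM per kb), Atf3 (1.09) and Chac1 (1.48) were the lowest of all 42 in WT normoxia. In WT hypoxia Hspa5 (506 CPM per kb) and Atf4 (314) led, and the 3 low genes stood at 13.1 (Ddit3), 32.5 (Atf3) and 14.0 (Chac1) CPM per kb. The lowest of the 42 in WT hypoxia by this measure were Eif2ak3 (7.66 CPM per kb) and Manf (10.8). Merged exons include every annotated exon, 12163 bases for Manf, and can be longer than the RNA present. The order of genes therefore depends on the annotation. Without division by length Manf, at 131 CPM in WT hypoxia, was above Ddit3 (72.9), Atf3 (79.3) and Chac1 (36.3).

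**Figure D1:**
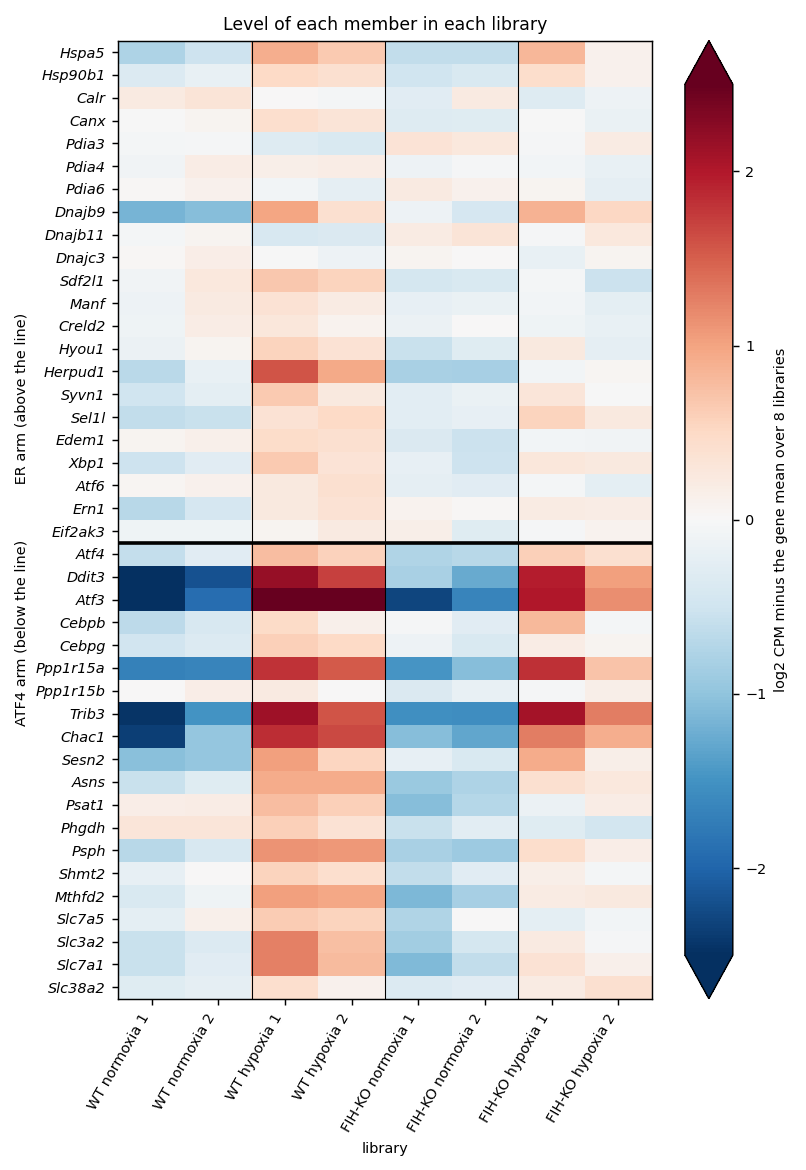
Level of each of the 42 members (rows, ER arm above the line and ATF4 arm below) in each of the 8 libraries (columns), as log2 CPM minus the gene's mean over the 8 libraries. Ddit3, Atf3, Ppp1r15a, Trib3 and Chac1 have the strongest contrast between normoxia and hypoxia, and most folding enzymes of the ER arm have little.

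With hypoxia in WT cells nearly all ATF4 arm genes rose, whereas the ER arm was mixed. Of the 20 ATF4 arm genes 18 rose and none fell, with a median log2 fold change of 1.29. In the ER arm 12 of 22 genes rose and 1 fell, with a median of 0.34. Among all tested genes 32.4% were called in this comparison by edgeR (adjusted p under 0.05), 16.9% higher and 15.5% lower, and the median was -0.00106. The libraries of the groups did not overlap for 70.8% of all tested genes (35.2% higher and 35.6% lower), so that separation of 2 libraries from 2 is common and no result in itself. The arms share sensors and stimuli and were not tested against each other, so the counts and medians stand as a description.

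Among the ER chaperones, the strongest change was that of Dnajb9 (ERdj4), a co-chaperone of BiP. It measured 18.6 and 19.8 CPM in WT normoxia and 82.1 and 54.6 CPM in WT hypoxia. The groups did not overlap, although the hypoxic libraries lay well apart from each other, and Dnajb9 rose 3.56-fold (log2 fold change 1.83, SE 0.20, adjusted p = 5.9e-05). Hspa5 (BiP), the main ER chaperone and the usual marker of the unfolded protein response, measured 954 and 1129 CPM in WT normoxia and 3046 and 2574 CPM in WT hypoxia. It rose 2.70-fold with no overlap (log2 fold change 1.43, SE 0.20, adjusted p = 0.000301). Smaller rises were seen for Hsp90b1 (GRP94, 1.64-fold), for Sdf2l1, which keeps client proteins soluble together with ERdj3 (1.44-fold), for Hyou1, a nucleotide exchange factor of BiP (1.41-fold), and for the lectin chaperone Canx (1.26-fold).

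None of the remaining 8 chaperones and folding enzymes was called higher. Dnajb11 (ERdj3), a further co-chaperone of BiP, fell from 101 and 111 CPM to 79.6 and 81.4 CPM (log2 fold change -0.40, SE 0.12, adjusted p = 0.0246), with both hypoxic libraries below both normoxic ones. The lectin chaperone Calr (log2 fold change -0.30) and the disulfide isomerases Pdia3 (-0.32, adjusted p = 0.0579) and Pdia6 (-0.21) also had lower values in both hypoxic libraries, without passing the test. Pdia4, a further disulfide isomerase, the BiP co-chaperone Dnajc3, and the secreted ER stress proteins Manf and Creld2 had log2 fold changes between -0.17 and 0.23. BiP and its cofactors were thus split, with Dnajb9 and Hyou1 higher and Dnajb11 lower.

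All 4 genes of ER-associated degradation rose with hypoxia in WT. Herpud1, which helps to assemble the HRD1 ubiquitin ligase complex, measured 29.0 and 40.6 CPM in WT normoxia and 137 and 89.0 CPM in WT hypoxia. Both hypoxic libraries exceeded both normoxic ones, and Herpud1 rose 3.24-fold (log2 fold change 1.70, SE 0.20, adjusted p = 0.000102). Sel1l, the adaptor of that ligase, rose 2.03-fold, the ligase Syvn1 (HRD1) itself 1.76-fold, and Edem1, which marks misfolded glycoproteins for disposal, 1.26-fold.

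Of the sensors and their transcription factors, Xbp1 and Ern1 rose and Atf6 and Eif2ak3 did not pass the test. Xbp1, whose RNA is cut by IRE1α, measured 68.2 and 80.4 CPM in WT normoxia and 156 and 124 CPM in WT hypoxia. The groups were separate (log2 fold change 0.91, SE 0.14, adjusted p = 0.000696). Ern1, which encodes IRE1α, rose from 156 and 189.5 CPM to 297 and 325 CPM (log2 fold change 0.85, SE 0.12, adjusted p = 0.000302). Log2 fold changes were 0.26 for Atf6 (adjusted p = 0.0943) and 0.25 for Eif2ak3 (adjusted p = 0.218).

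In the ATF4 arm the largest changes were those of the transcription factors and feedback regulators. Atf3, a stress-induced repressor and activator of the ATF family, stood at 1.99 and 3.32 CPM in WT normoxia and 86.2 and 72.4 CPM in WT hypoxia. It rose 29.6-fold (log2 fold change 4.89, SE 0.32, adjusted p = 2.32e-06) and was the 46th most strongly raised of the 13933 tested genes. Ddit3, which encodes the pro-apoptotic factor CHOP, stood at 3.02 and 4.15 CPM in WT normoxia and 84.5 and 61.3 CPM in WT hypoxia, a 20.2-fold rise (log2 fold change 4.34, SE 0.33, adjusted p = 6.99e-06). Trib3, a pseudokinase that holds back ATF4 and CHOP, stood at 12.5 and 24.2 CPM in WT normoxia and 298 and 205 CPM in WT hypoxia, a 13.7-fold rise (log2 fold change 3.77, SE 0.31, adjusted p = 1.14e-05). For each of these genes the lower hypoxic library was several times above the higher normoxic one.

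Ppp1r15a (GADD34), the stress-induced subunit that directs phosphatase to eIF2α, rose from 16.4 and 16.8 CPM to 185 and 152 CPM (10.1-fold). Its constitutive counterpart Ppp1r15b (CReP) measured 221 and 246 CPM in WT normoxia and 257 and 222 CPM in WT hypoxia, and these values overlapped (log2 fold change 0.035, adjusted p = 0.853). The paralogs thus stood apart in this comparison, although the difference between them was not tested. Chac1, which degrades glutathione, rose 9.35-fold and Sesn2, an inhibitor of mTORC1 signaling, 3.51-fold.

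Atf4 RNA had a smaller fold change than Atf3, Ddit3, Trib3, Ppp1r15a and Chac1. It stood at 308 and 382 CPM in WT normoxia and 793 and 698 CPM in WT hypoxia. The rise was 2.16-fold with no overlap (log2 fold change 1.11, SE 0.13, adjusted p = 0.000118). The C/EBP partners Cebpb and Cebpg rose 1.79-fold and 1.93-fold.

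Among the 6 amino acid and one-carbon enzymes, 5 rose in WT hypoxia. Psph, the last enzyme of serine synthesis, rose 3.11-fold, Asns (asparagine synthetase) 2.54-fold, and the mitochondrial one-carbon enzymes Mthfd2 and Shmt2 2.34-fold and 1.50-fold. Psat1, the middle enzyme of serine synthesis, rose 1.42-fold, whereas Phgdh, the first and committed enzyme, measured 422 and 421 CPM in WT normoxia and 520.0 and 441 CPM in WT hypoxia and did not pass the test (log2 fold change 0.19, SE 0.13, adjusted p = 0.296). All 4 amino acid transporters rose. These were Slc3a2, the heavy chain shared by several exchangers (2.79-fold), the cationic transporter Slc7a1 (2.75-fold), the leucine transporter Slc7a5 (1.55-fold) and the glutamine transporter Slc38a2 (1.45-fold).

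The calls in WT depended on single libraries for the smaller changes. Of the 31 called members, 21 were still called without WT hypoxia replicate 1 and 21 without WT normoxia replicate 1, and no sign turned. The losses were Canx, Dnajb11, Sdf2l1, Hyou1, Edem1, Cebpb, Psat1, Shmt2, Slc7a5 and Slc38a2 in either case. Pdia3 and Calr, not called with all libraries, were called lower without either of the FIH-KO normoxia libraries (adjusted p = 0.0383 and 0.0384 for Pdia3, 0.0415 and 0.0413 for Calr), as was Pdia3 without either of the FIH-KO hypoxia libraries (0.0111 and 0.0192).

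**Figure D2:**
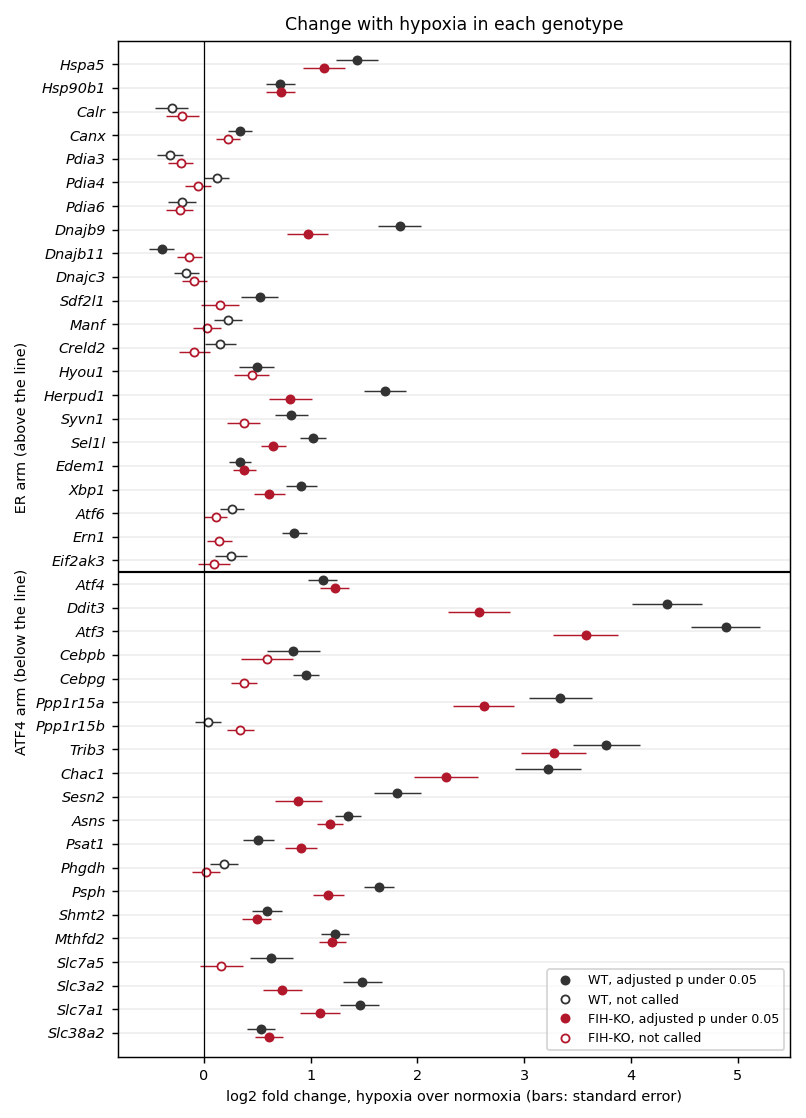
Log2 fold change of each member between hypoxia and normoxia in WT (black) and FIH-KO (red), with standard errors as bars. Filled circles have an adjusted p under 0.05, open circles do not. The 5 largest changes in WT, those of Atf3, Ddit3, Trib3, Ppp1r15a and Chac1, all belong to the ATF4 arm, and red points of these genes lie to the left of the black ones.

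In FIH-KO cells hypoxia raised most ATF4 arm genes and a minority of ER arm genes. Of the 20 ATF4 arm genes 15 rose (median log2 fold change 1.00) and in the ER arm 7 of 22 (median 0.14), and none fell in either arm. By comparison 16.8% of all tested genes were called, 8.84% higher and 8% lower, with a median of -0.0267. The groups did not overlap for 55.2% of all tested genes (25.9% higher and 29.3% lower).

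Hspa5 stood at 1069 and 1069 CPM in FIH-KO normoxia and 2884 and 1763 CPM in FIH-KO hypoxia. The normoxic libraries were equal to the digit shown while the hypoxic ones lay far apart, and Hspa5 rose 2.17-fold (log2 fold change 1.12, SE 0.20, adjusted p = 0.00286). Dnajb9 measured 38.0 and 30.9 CPM in FIH-KO normoxia and 75.7 and 59.2 CPM in FIH-KO hypoxia (log2 fold change 0.97, SE 0.19, adjusted p = 0.00537). Herpud1 measured 26.4 and 26.2 CPM and 44.2 and 48.0 CPM in the same groups (log2 fold change 0.81, SE 0.20, adjusted p = 0.0174). All 3 genes were higher in both hypoxic libraries, and the call for Herpud1 was lost without either FIH-KO normoxia library (adjusted p = 0.0808 without replicate 1 and 0.0735 without replicate 2).

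The other ER arm genes that rose were Hsp90b1 (1.65-fold), Sel1l (1.57-fold), Xbp1 (1.53-fold) and Edem1 (1.30-fold). Xbp1 measured 85.9 and 68.9 CPM in FIH-KO normoxia and 120.2 and 116 CPM in FIH-KO hypoxia (log2 fold change 0.61, SE 0.14, adjusted p = 0.0133), and without FIH-KO normoxia replicate 2 its adjusted p was 0.0888. Ern1, called in WT, had values of 267 and 258 CPM in FIH-KO normoxia and 291 and 287 CPM in FIH-KO hypoxia (log2 fold change 0.14, SE 0.12, adjusted p = 0.454), so that both hypoxic libraries were higher by a small margin that did not pass the test. Canx, Sdf2l1, Hyou1, Syvn1 and Dnajb11, called in WT, were likewise not called in FIH-KO, with log2 fold changes of 0.23, 0.15, 0.45, 0.37 and -0.14. Whether these effects differed between genotypes is a separate test, given further on.

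In the ATF4 arm Atf3 stood at 2.56 and 3.97 CPM in FIH-KO normoxia and 50.3 and 28.0 CPM in FIH-KO hypoxia, an 11.9-fold rise (log2 fold change 3.58, SE 0.31, adjusted p = 1.89e-05). Trib3 stood at 23.8 and 23.3 CPM and 289 and 167 CPM, a 9.68-fold rise (log2 fold change 3.27, SE 0.30, adjusted p = 3.87e-05). Ppp1r15a stood at 19.0 and 25.2 CPM and 187 and 85.8 CPM, a 6.16-fold rise (log2 fold change 2.62, SE 0.29, adjusted p = 0.000134). In each of the 3, replicate 1 of FIH-KO hypoxia was well above replicate 2, and both were far above FIH-KO normoxia.

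Ddit3 stood at 10.7 and 7.84 CPM in FIH-KO normoxia and 72.5 and 37.9 CPM in FIH-KO hypoxia, a 5.96-fold rise (log2 fold change 2.58, SE 0.29, adjusted p = 0.000169). Atf4 rose from 276 and 289 CPM to 701 and 618 CPM (log2 fold change 1.22, SE 0.13, adjusted p = 0.000133), and its 2 hypoxic libraries lay closer together than those of Ddit3, Atf3, Trib3 and Ppp1r15a. Chac1 rose 4.82-fold and Sesn2 1.84-fold. The enzymes Mthfd2 (2.30-fold), Asns (2.27-fold), Psph (2.24-fold), Psat1 (1.88-fold) and Shmt2 (1.41-fold) rose, and Phgdh again did not pass the test (log2 fold change 0.022, adjusted p = 0.937). Of the transporters, Slc7a1 (2.12-fold), Slc3a2 (1.66-fold) and Slc38a2 (1.53-fold) rose, and Slc7a5 did not pass the test (0.16, adjusted p = 0.643). Cebpb, Cebpg and Ppp1r15b had log2 fold changes of 0.59, 0.37 and 0.34 and were not called. Calls were gained by Cebpb (0.96, adjusted p = 0.00469), Hyou1 (0.66, adjusted p = 0.00847) and Syvn1 (0.52, adjusted p = 0.0493) without FIH-KO hypoxia replicate 2, by Cebpg without FIH-KO normoxia replicate 1 (adjusted p = 0.0418) and by Slc7a5 without FIH-KO normoxia replicate 2 (adjusted p = 0.0465).

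**Figure D3:**
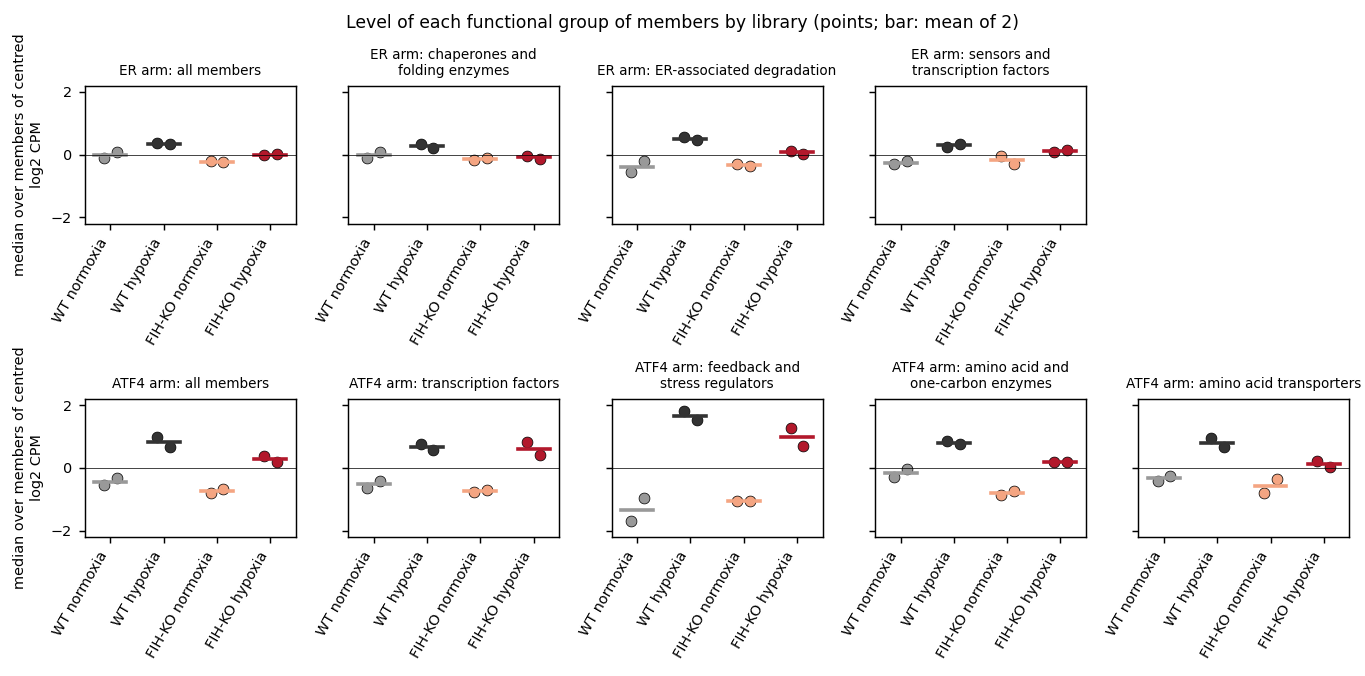
Level of each functional group of members in each library, as the median over its members of log2 CPM minus the gene's mean over the 8 libraries (points, 2 per group, with their mean as a bar). The feedback and stress regulators move most with oxygen, and the amino acid and one-carbon enzymes are lower in FIH-KO than in WT at each oxygen level.

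In normoxia the members differed between genotypes in each direction, with the amino acid and one-carbon enzymes on the lower side. In FIH-KO relative to WT, 4 ER arm genes were higher and 4 lower of 22 (median log2 fold change -0.085), and 2 ATF4 arm genes were higher and 5 lower of 20 (median -0.23). Among all tested genes 28.2% were called, 15.2% higher and 13% lower, with a median of -0.00251, and 69.4% did not overlap between the genotypes (34.6% higher and 34.8% lower). The members called, 8 of 22 and 7 of 20, are to be read against that share of all genes. This comparison shares the WT normoxia libraries with the hypoxia comparison in WT, and the FIH-KO normoxia libraries with that in FIH-KO.

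Dnajb9 was higher in FIH-KO normoxia, at 38.0 and 30.9 CPM against 18.6 and 19.8 CPM in WT (1.79-fold, log2 fold change 0.84, SE 0.20, adjusted p = 0.00815). Ern1 was higher at 267 and 258 CPM against 156 and 189.5 CPM (log2 fold change 0.60, SE 0.12, adjusted p = 0.00283). Edem1 was lower at 104 and 91.3 CPM against 139 and 146 CPM (log2 fold change -0.54, SE 0.11, adjusted p = 0.00302). None of the 3 genes overlapped between genotypes. Without WT normoxia replicate 1 the calls for Dnajb9 and Ern1 were lost (adjusted p = 0.0805 and 0.0789), and that for Dnajb9 also without FIH-KO normoxia replicate 1 (0.0882), while Edem1 was called in every such fit.

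The other ER arm genes called in normoxia were Pdia3 and Sel1l, which were higher (1.27-fold and 1.28-fold), and Sdf2l1, Canx and Atf6, which were lower (1.42-fold, 1.27-fold and 1.25-fold). Their adjusted p lay between 0.0392 and 0.0489, close to the threshold. Hspa5 measured 1069 and 1069 CPM in FIH-KO and 954 and 1129 CPM in WT, with the FIH-KO values between the WT values (log2 fold change 0.038, SE 0.20, adjusted p = 0.908). Xbp1 measured 85.9 and 68.9 CPM in FIH-KO and 68.2 and 80.4 CPM in WT, and these overlapped (log2 fold change 0.057, SE 0.14, adjusted p = 0.803).

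In the ATF4 arm Ddit3 was higher in FIH-KO normoxia, at 10.7 and 7.84 CPM against 3.02 and 4.15 CPM in WT (2.57-fold, log2 fold change 1.36, SE 0.34, adjusted p = 0.0111). Both FIH-KO libraries were above both WT libraries but far below any hypoxic library. The call was lost without FIH-KO normoxia replicate 1 (adjusted p = 0.101) or WT normoxia replicate 1 (0.104). Sesn2 was also higher, 1.65-fold (adjusted p = 0.0298), a call lost whichever library of this comparison was left out. Its log2 fold change then ran from 0.61 to 0.77 over the fits with 1 library left out. Atf4 had 276 and 289 CPM in FIH-KO and 308 and 382 CPM in WT, lower in both FIH-KO libraries without passing the test (log2 fold change -0.29, SE 0.13, adjusted p = 0.124). Atf3, Trib3, Ppp1r15a, Chac1, Cebpb and Cebpg had log2 fold changes between 0.16 and 0.41 and were not called, and Ppp1r15b was lower 1.28-fold (adjusted p = 0.0448). Several of these rested on 1 library. With 1 library left out, Chac1 ran from -0.24 to 1.15 and was called without WT normoxia replicate 2 (adjusted p = 0.0322), Trib3 ran from -0.070 to 0.89 and Atf3 from -0.0875 to 0.69, neither of them called.

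Of the 6 amino acid and one-carbon enzymes of the ATF4 arm, 4 were lower in FIH-KO normoxia. Psat1 measured 247 and 313 CPM in FIH-KO normoxia and 574 and 585 CPM in WT normoxia, 2.07-fold lower (log2 fold change -1.05, SE 0.15, adjusted p = 0.000363). Mthfd2 measured 82.5 and 101 CPM and 139 and 168 CPM, 1.67-fold lower (log2 fold change -0.74, SE 0.13, adjusted p = 0.0014). Phgdh measured 232 and 286 CPM and 422 and 421 CPM, 1.63-fold lower (log2 fold change -0.70, SE 0.13, adjusted p = 0.00219). These 3 stayed called whichever of the 8 libraries was left out. With Asns (1.34-fold lower), 4 of the 6 enzymes were called, and the log2 fold changes of Psph and Shmt2 were -0.32 and -0.34 (adjusted p = 0.113 and 0.0837). None of the 4 transporters was called in normoxia (log2 fold changes from -0.43 to -0.051). Without FIH-KO normoxia replicate 2, Slc7a5 (-0.73, adjusted p = 0.0114), Slc7a1 (-0.71, adjusted p = 0.0276), Shmt2 (-0.55, adjusted p = 0.0224) and, in the ER arm, Calr (-0.60, adjusted p = 0.0128) were called lower.

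Position on the chromosome moved with genotype and is given beside these values. The median log2 fold change of tested genes on chromosome 3, which holds Phgdh, was -0.36 in normoxia and -0.41 in hypoxia, and on chromosome 19, which holds Psat1, Slc3a2 and Syvn1, it was -0.38 and -0.45. On chromosome 6, which holds Mthfd2 and Asns, it was -0.12 and -0.13. On the other chromosomes with members the medians lay between -0.17 and 0.23. The highest were those of chromosome 2, which holds Pdia3 among others (0.23 in normoxia and 0.21 in hypoxia), and chromosome 16, which holds Dnajb11 and Sdf2l1 (0.23 and 0.18). Chromosome 10, which holds Ddit3, Hsp90b1 and Shmt2, followed (0.185 and 0.144). Pdia3 itself had log2 fold changes of 0.34 and 0.45, and Dnajb11 of 0.25 and 0.51, whereas Sdf2l1 had -0.51 and -0.88. On chromosome 10, Ddit3 had 1.36 and -0.40, Hsp90b1 -0.17 and -0.17, and Shmt2 -0.34 and -0.44. The part of position in the lower or higher levels of these genes was not tested. Of the members on chromosomes 3 and 19, Phgdh and Psat1 were below the median of their own chromosome at each oxygen level, Slc3a2 in hypoxia only (-0.19 in normoxia and -0.93 in hypoxia) and Syvn1 at neither (0.14 and -0.31).

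**Figure D4:**
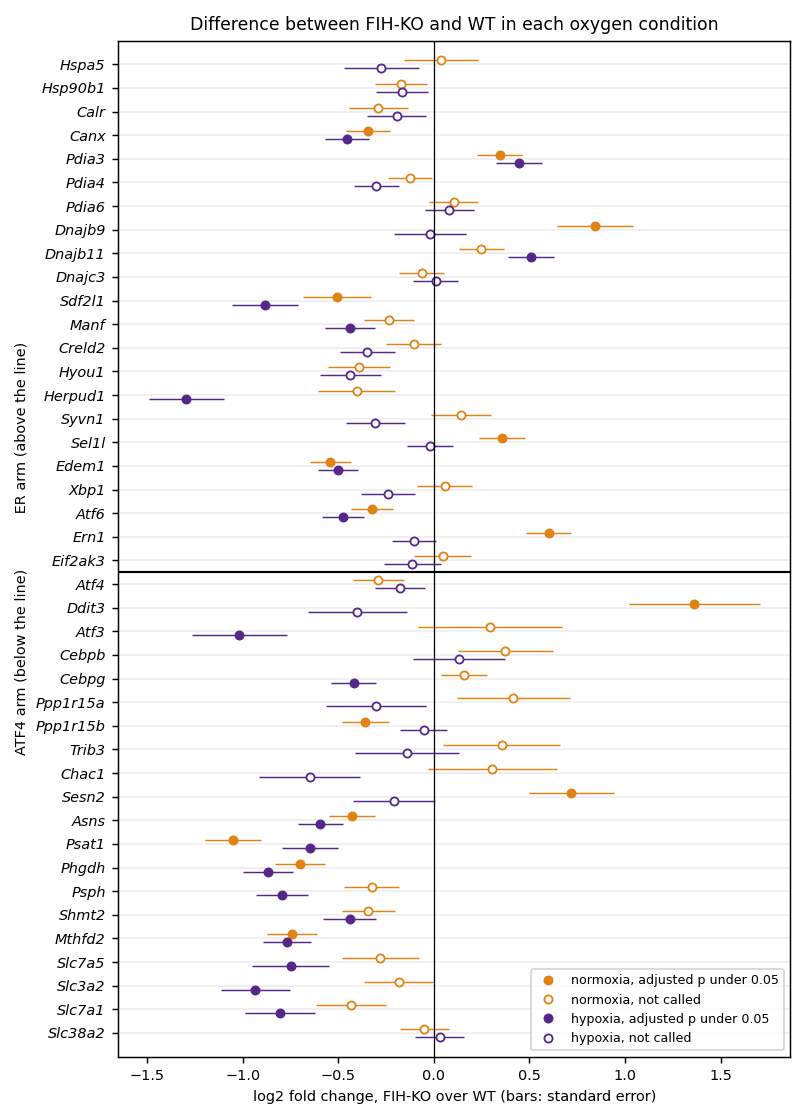
Log2 fold change of each member between FIH-KO and WT in normoxia (orange) and hypoxia (purple), with standard errors as bars. Filled circles have an adjusted p under 0.05. The amino acid and one-carbon enzymes lie left of 0 in each condition, whereas Ddit3, Dnajb9 and Ern1 are right of 0 only in normoxia, where they are called.

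In hypoxia most members that differed between genotypes were lower in FIH-KO than in WT. Of the 20 ATF4 arm genes 11 were lower and none higher (median log2 fold change -0.52), and in the ER arm 6 of 22 were lower and 2 higher (median -0.26). Among all tested genes 28% were called, 14.1% higher and 13.9% lower, with a median of -0.0321, and 61.7% did not overlap between the genotypes (29.1% higher and 32.5% lower). The fold changes compare the hypoxic libraries only, none of which enters the fold changes in normoxia. The estimate of spread behind the calls comes from all 8 libraries, so the calls in normoxia and hypoxia are not independent.

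Herpud1 had the largest difference in the ER arm. It measured 44.2 and 48.0 CPM in FIH-KO hypoxia and 137 and 89.0 CPM in WT hypoxia, 2.45-fold lower (log2 fold change -1.29, SE 0.20, adjusted p = 0.000629). The higher FIH-KO library was well below the lower WT library, and Herpud1 was called whichever library was left out. Sdf2l1 measured 28.9 and 20.6 CPM in FIH-KO and 47.6 and 43.7 CPM in WT, 1.84-fold lower (log2 fold change -0.88, SE 0.17, adjusted p = 0.00301), and was also lower in normoxia, at 22.0 and 22.7 CPM against 27.9 and 35.7 CPM. Dnajb11 was higher at 103 and 126 CPM against 79.6 and 81.4 CPM (log2 fold change 0.51, SE 0.12, adjusted p = 0.00829), a call lost without FIH-KO hypoxia replicate 2 (adjusted p = 0.0536) or WT hypoxia replicate 1 (0.0528). Sdf2l1 and Dnajb11, whose proteins form a complex in the ER, thus differed in opposite directions.

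Edem1, Atf6, Canx and Manf were lower in FIH-KO hypoxia (1.42-fold, 1.39-fold, 1.37-fold and 1.36-fold), and Pdia3 was higher (1.36-fold). Edem1 measured 128 and 126 CPM in FIH-KO and 183 and 176 CPM in WT. Hspa5 had 2884 and 1763 CPM in FIH-KO and 3046 and 2574 CPM in WT, so that FIH-KO replicate 1 lay between the WT libraries and replicate 2 below them (log2 fold change -0.27, SE 0.20, adjusted p = 0.327). Without FIH-KO hypoxia replicate 1, Hspa5 was called lower (log2 fold change -0.63, adjusted p = 0.00793). Dnajb9 overlapped at 75.7 and 59.2 CPM in FIH-KO against 82.1 and 54.6 CPM in WT (-0.022, adjusted p = 0.948), and so did Syvn1 and Sel1l. Xbp1, at 120.2 and 116 CPM against 156 and 124 CPM, and Ern1, at 291 and 287 CPM against 297 and 325 CPM, were lower in both FIH-KO libraries without passing the test (log2 fold changes -0.24, adjusted p = 0.233 and -0.10, adjusted p = 0.544).

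All 6 amino acid and one-carbon enzymes were lower in FIH-KO hypoxia, by 1.36-fold to 1.83-fold. Phgdh measured 276 and 249.5 CPM in FIH-KO and 520.0 and 441 CPM in WT (log2 fold change -0.87, SE 0.13, adjusted p = 0.000632). Mthfd2 measured 208 and 214 CPM and 368 and 352 CPM (log2 fold change -0.77, SE 0.13, adjusted p = 0.00111), and Psat1 464 and 587 CPM and 871 and 778 CPM (log2 fold change -0.65, SE 0.15, adjusted p = 0.0063). Psat1 lost the call without WT hypoxia replicate 1, and Shmt2 without that library and 4 others. In FIH-KO hypoxia Phgdh stayed below its level in WT normoxia (422 and 421 CPM), while Psat1 reached values around those of WT normoxia (574 and 585 CPM).

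Of the transporters, Slc3a2 measured 280.4 and 236 CPM in FIH-KO hypoxia and 578 and 409 CPM in WT hypoxia, 1.91-fold lower (log2 fold change -0.93, SE 0.18, adjusted p = 0.00257). Slc7a1 and Slc7a5 were 1.75-fold and 1.68-fold lower, and Slc38a2 overlapped between genotypes (0.030, adjusted p = 0.891). Slc7a5 and Slc3a2 form a common exchanger, and both were lower. The call for Slc7a5 was lost without FIH-KO hypoxia replicate 1 or either WT hypoxia library, whereas Slc3a2 was called whichever library was left out. Among the transcription factors, Atf3 measured 50.3 and 28.0 CPM in FIH-KO and 86.2 and 72.4 CPM in WT, 2.02-fold lower (log2 fold change -1.02, SE 0.25, adjusted p = 0.00979). The call for Atf3 was lost without WT hypoxia replicate 1 (adjusted p = 0.0939) and with DESeq2 (0.0652). Cebpg was 1.34-fold lower, while Cebpb was not called (0.13, adjusted p = 0.729).

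Atf4 and the feedback regulators were not called between genotypes in hypoxia. Atf4 had 701 and 618 CPM in FIH-KO and 793 and 698 CPM in WT, with 1 FIH-KO library just above the lower WT library (log2 fold change -0.18, SE 0.13, adjusted p = 0.35). Ddit3 had 72.5 and 37.9 CPM against 84.5 and 61.3 CPM (log2 fold change -0.40, SE 0.26, adjusted p = 0.277), and Trib3 had 289 and 167 CPM against 298 and 205 CPM (-0.14, adjusted p = 0.739). In each of them replicate 1 of FIH-KO hypoxia lay among the WT values and replicate 2 below. Without FIH-KO hypoxia replicate 1, Ddit3 was called lower (log2 fold change -0.90, adjusted p = 0.0110). Ppp1r15a, Chac1 and Sesn2 had log2 fold changes of -0.30, -0.65 and -0.21, and Ppp1r15b of -0.054. Without FIH-KO hypoxia replicate 1, Ppp1r15a (-0.93, adjusted p = 0.00212) and Sesn2 (-0.62, adjusted p = 0.0218) were called lower as well. Chac1 was called lower without WT normoxia replicate 1 (-0.61, adjusted p = 0.0315) or replicate 2 (-0.61, adjusted p = 0.0321). Without another library the sign of Trib3, Ppp1r15a and Sesn2 turned, with values up to 0.20, 0.15 and 0.14, none of them called.

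Many calls between genotypes depended on single libraries, those of large differences among them. Ddit3 (log2 fold change 1.36) and Dnajb9 (0.84) in normoxia and Atf3 (-1.02) in hypoxia each lost the call in some fits. Without WT hypoxia replicate 1, 8 of the 19 members called in hypoxia were still called (Sdf2l1, Herpud1, Atf6, Asns, Phgdh, Psph, Mthfd2 and Slc3a2), all lower. Hyou1 was called lower in hypoxia without FIH-KO hypoxia replicate 1 (log2 fold change -0.65, adjusted p = 0.00846). In normoxia 15 members were called, of which 9 were still called without FIH-KO normoxia replicate 2, 9 without WT hypoxia replicate 2, which is not part of the comparison but of the shared estimate of spread, and 7 without WT normoxia replicate 2. Of the 15, 5 were still called without FIH-KO normoxia replicate 1 (Edem1, Ern1, Psat1, Phgdh and Mthfd2) and 6 without WT normoxia replicate 1 (Sdf2l1, Edem1, Asns, Psat1, Phgdh and Mthfd2). Edem1, Psat1, Phgdh and Mthfd2 were called in normoxia whichever library was left out, and Phgdh and Mthfd2 were also called in hypoxia whichever library was left out.

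**Figure D5:**
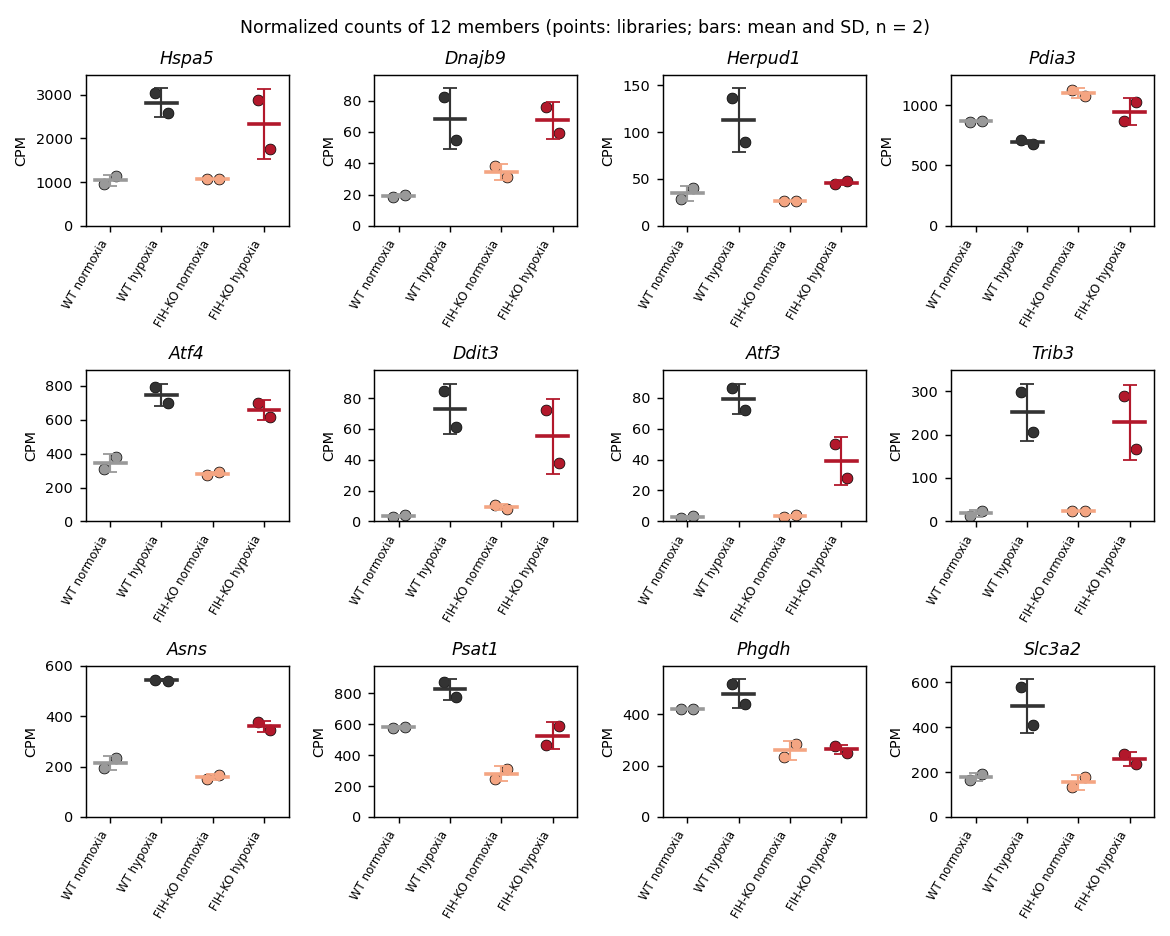
Normalized counts (CPM, linear axis from 0) of 12 members in the 4 groups, with the 2 libraries as points and their mean and SD as bars. In hypoxia the WT and FIH-KO libraries overlap for Hspa5, Dnajb9, Atf4, Ddit3 and Trib3 and lie apart for Herpud1, Asns and Slc3a2.

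Whether the FIH-KO effect itself differed between hypoxia and normoxia was tested as an interaction. No member passed the test by edgeR, and neither did any of the 13933 tested genes (0% called, 0% higher and 0% lower). At an unadjusted p under 0.05 there were 925 genes, 11 of them members, and DESeq2 called 40 genes, of which 1, Ern1, was a member. All 11 members had a more negative FIH-KO effect in hypoxia than in normoxia, equivalently a smaller rise with hypoxia in FIH-KO than in WT. They were Dnajb9, Herpud1, Sel1l and Ern1 of the ER arm and Ddit3, Atf3, Cebpg, Chac1, Sesn2, Psph and Slc3a2 of the ATF4 arm. With no gene called, the list is a description only, and the direction of the other genes under that p was not counted. The list changed with the setting, to 16 members (15 more negative) with no filter beyond 1 read and 9 with at least 10 counts in every library. It changed further with 1 library left out, and in some of these fits it held members with a positive difference. Among those were Psat1 and Ppp1r15b, whose differences ran from 0.22 to 0.64 and from 0.21 to 0.47 over these fits. With 1 library left out, the difference for Chac1 ran from -1.77 to -0.37.

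The largest difference of effects was that of Ddit3 (log2 fold change -1.76, SE 0.43, adjusted p = 0.348). Its FIH-KO to WT log2 fold change was 1.36 in normoxia and -0.40 in hypoxia. Without FIH-KO hypoxia replicate 1 the difference for Ddit3 was -2.24 (adjusted p = 0.0401), and Ppp1r15a and Sesn2 were called too. For Ern1 the difference was -0.71 (SE 0.17, adjusted p = 0.329), with FIH-KO to WT log2 fold changes of 0.60 and -0.10. Dnajb9 (-0.86, adjusted p = 0.545) and Herpud1 (-0.89, adjusted p = 0.531) had similar differences, neither of them called. Dnajb9 was higher in FIH-KO normoxia and level in hypoxia. Herpud1 was lower in FIH-KO hypoxia, and in normoxia it was lower in both FIH-KO libraries without passing the test (-0.40, adjusted p = 0.157). The median difference was -0.17 in the ER arm, -0.42 in the ATF4 arm and -0.0189 over all tested genes. By contrast the enzymes Mthfd2 (-0.027), Phgdh (-0.17) and Shmt2 (-0.10) had differences near 0, with FIH-KO below WT in all hypoxic and normoxic libraries. Atf4 (0.11) and Psat1 (0.40) were on the positive side.

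When the arms were summarised per library as the median of centred log2 CPM, the ATF4 arm stood at -0.55 and -0.32 in WT normoxia, 0.98 and 0.68 in WT hypoxia, -0.80 and -0.66 in FIH-KO normoxia, and 0.38 and 0.18 in FIH-KO hypoxia. The 4 groups were fully separated in the ATF4 arm, in the order FIH-KO normoxia, WT normoxia, FIH-KO hypoxia and WT hypoxia. The ER arm stood at -0.11 and 0.072 in WT normoxia, 0.36 and 0.33 in WT hypoxia, -0.21 and -0.25 in FIH-KO normoxia, and -0.023 and 0.018 in FIH-KO hypoxia. There the order was the same in part, but FIH-KO hypoxia lay between the 2 WT normoxia libraries. These summaries are descriptions of the chosen genes and carry no test.

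Within the ER arm the presence of a promoter element did not divide the genes that rose from those that did not. Of the 12 ER arm genes with an exact ERSE or ERSE-II, 6 rose and 1 fell with hypoxia in WT (median log2 fold change 0.28), and of the 10 without, 6 rose (median 0.43). Calr, with an ERSE, had the value -0.30, and Dnajb9, without an exact match in the window, rose most. In the ATF4 arm, 3 of the 4 genes with an exact CARE rose (median 3.78), as did 15 of the 16 without (median 1.17). The gene with a CARE that did not pass the test was Ppp1r15b.

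The wider pathways were described with lists of genes that are not members. Of 32 other tested ATF4-responsive genes, 25 rose and none fell with hypoxia in WT (median log2 fold change 1.66), and 20 rose and none fell in FIH-KO (median 1.05). Examples are Aldh1l2, a mitochondrial one-carbon enzyme (log2 fold change 4.30 in WT and 3.73 in FIH-KO), and Stc2, a secreted glycoprotein (3.88 and 3.83). In FIH-KO relative to WT, 8 of these genes were higher and 4 lower in normoxia, and 1 was higher and 11 lower in hypoxia, among them the arginine transporter Slc7a3 (log2 fold change -2.65, adjusted p = 2.65e-05) and Stc2 (-2.28, adjusted p = 0.00159). Of 20 cytosolic aminoacyl-tRNA synthetases, 12 rose and 2 fell in WT, and 12 rose in FIH-KO. In FIH-KO relative to WT, none was higher and 10 were lower in normoxia and 11 in hypoxia, with medians of -0.33 and -0.43. Iars was lower by 0.68 and 0.71 on the log2 scale and Rars by 0.57 and 0.74. These counts are to be read against all tested genes, of which 16.9% rose and 15.5% fell in WT. In FIH-KO 8.84% rose and 8% fell. Between genotypes 15.2% were higher and 13% lower in FIH-KO normoxia, and 14.1% higher and 13.9% lower in FIH-KO hypoxia. The 4 of 32 ATF4-responsive genes lower in normoxia are near that share.

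Of 63 other tested genes of ER folding, translocation and degradation, 15 rose and 4 fell with hypoxia in WT, and 6 rose in FIH-KO, with medians of 0.10 and 0.13. The largest rise of this list was that of Ero1a, the oxidase that recharges disulfide isomerases and a known hypoxia-induced gene (15.9-fold in WT and 25.3-fold in FIH-KO). In FIH-KO relative to WT, 7 were higher and 5 lower in normoxia, and 9 were higher and 8 lower in hypoxia. By edgeR, 32.4% of all tested genes were called with hypoxia in WT and 16.8% in FIH-KO. Between genotypes 28.2% were called in normoxia and 28% in hypoxia. The called genes of this list, higher and lower together, exceeded that share in no comparison. Of all tested genes, 13.9% were lower in FIH-KO hypoxia, the figure against which the 8 of 63 ER genes, 11 of 32 ATF4-responsive genes and 11 of 20 synthetases that were lower may be set.

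For 7 members a gene on the same strand overlaps in the annotation, and for 24 a gene on the opposite strand. Such counts can hold reads of neighboring genes, since the strand setting of the counting is not given in the sources used here. Ddit3 overlaps Mars1 and Mbd6 on the opposite strand, and on its own strand a second Ddit3 identifier, which had 0 reads in all 8 libraries, and 2 predicted genes. Manf overlaps Rbm15b on the same strand, Shmt2 overlaps Ndufa4l2 and Slc3a2 overlaps Snhg1 on the opposite strand. The part of such reads in the values was not tested.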

How the data were processed

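RNA of 8 LLC libraries (4 groups of 2) was sequenced from a stranded mRNA kit. The deposited values are raw read counts per gene, which the authors made by demultiplexing with bcl2fastq, alignment with STAR and counting with HTSeq. The methods name the build GRCm39, and the submitters' processing notes list GRCm38 (mm10), GRCm39 (mm39), STAR and DESeq2. The annotation release, the strand setting and the treatment of reads with several matches are not given in the sources used here. Total counts were 14519731 to 18177016 per library, and 0 columns of per-sample values were left unused.

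The tests were run with edgeR 4.0.16 under R 4.3.3. Genes passing filterByExpr (13933) were scaled by TMM, and 1 quasi-likelihood model with a mean per group was fitted to all 8 libraries, so that all groups share an estimate of spread (common biological coefficient of variation 11.7%). Calls are Benjamini-Hochberg adjusted p under 0.05 over all tested genes. The script was tested on simulated data. CPM use TMM-scaled totals. Of the leukocyte markers, 1 is not reported here. Promoter windows came from GENCODE M39. Alternatives were RLE and upper-quartile factors, DESeq2 1.42.0, other filters, a replicate block, the 4 libraries of a comparison alone, and each library left out. Members described in full were Hspa5, Xbp1, Atf4 and Ddit3 and, per arm and comparison, the 3 called genes with the largest change and a mean of at least 50 counts; others were added for their role, after their values were seen. The members and lists were chosen with earlier results of these data known.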

Additional observations from a re-analysis of the deposited data

How the results depend on the processing

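Across the counts and medians of both arms, 198 values under other normalizations, filters, tools and sample sets did not move (counts of genes within 1.5 times of the reported count, medians by less than 1 SD between replicate libraries), and 6 moved. With hypoxia in WT, 1 ER arm gene was called lower, against 2 with DESeq2, 3 with no filter beyond 1 read and 3 with the 4 libraries of the comparison alone. For the difference of the FIH-KO effect, 0 members were called, against 1 lower ER arm gene with DESeq2, and 3 ER arm and 4 ATF4 arm genes, all lower, with no filter beyond 1 read. The cause was not tested.

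Leaving out 1 library moved 51 of these values and not 189. In normoxia, FIH-KO relative to WT then had 0 to 4 ER arm genes higher and 1 to 5 lower (median log2 fold change -0.216 to 0.00558), and 0 to 2 ATF4 arm genes higher and 3 to 8 lower (-0.388 to -0.0225). In hypoxia the ER arm had 0 to 2 higher and 3 to 8 lower (-0.334 to -0.136) and the ATF4 arm 5 to 13 lower (-0.621 to -0.415). With hypoxia in WT the ER arm had 8 to 12 higher and 0 to 3 lower (0.259 to 0.37), and the ATF4 arm 13 to 18 higher (1.12 to 1.39). With hypoxia in FIH-KO these were 4 to 9 (0.143 to 0.245) and 12 to 16 (0.938 to 1.19). The difference of effects had 0 to 3 lower ATF4 arm genes, with medians of -0.2 to -0.0251 (ER arm) and -0.508 to -0.123 (ATF4 arm). Fits with 1 library in a group assume that it varies like the other groups.

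No called member turned its sign when a library was left out. Of the members not called, 10 of 27 turned between genotypes in normoxia, 11 of 23 in hypoxia, 3 of 11 with hypoxia in WT, 10 of 20 in FIH-KO and 18 of 42 for the difference of effects. The log2 fold change of Hspa5 in normoxia ran from -0.11 (without WT normoxia replicate 1) to 0.14, in hypoxia from -0.63 to 0.042 (without FIH-KO hypoxia replicate 2), and for the difference of effects from -0.64 to 0.0026 (likewise). That of Xbp1 in normoxia ran from -0.13 (without FIH-KO normoxia replicate 1) to 0.18, with -0.0857 without WT normoxia replicate 1. No value with the turned sign was called.

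The labels do not say whether libraries with the same replicate number were handled together. Deviations of same-numbered libraries correlated at -0.0393 to 0.213 between groups, and the highest value was that between WT hypoxia and FIH-KO hypoxia. A fit with a replicate block called 14 instead of 15 members between genotypes in normoxia, 23 instead of 22 with hypoxia in FIH-KO, the same number in hypoxia and in WT, and 0 members and 5 genes for the difference of effects. Depth limits Ddit3, Atf3 and Chac1 most, with 31 to 94 reads in the WT normoxia libraries.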

Other observations

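Of 14 genes for the eIF2 kinases, eIF2 subunits and the exchange factor eIF2B, 1 rose and 4 fell with hypoxia in WT, and 1 rose and 1 fell in FIH-KO. These counts are to be read against 32.4% of all tested genes called in WT and 16.8% in FIH-KO, and the former is near that share. Eif2ak2, which encodes the kinase PKR, fell by 0.61 on the log2 scale in WT hypoxia (adjusted p = 0.00782, edgeR), and the eIF2B subunit gene Eif2b1 fell by 0.57 in WT and 0.48 in FIH-KO. Between genotypes in normoxia 1 of the 14 was higher and 6 were lower in FIH-KO, and in hypoxia 2 were higher and 2 lower, against 28.2% and 28% of all tested genes called. Eif2ak4, which encodes the amino acid sensor GCN2, was 1.89-fold higher in FIH-KO normoxia (adjusted p = 0.000419) and 1.59-fold higher in FIH-KO hypoxia (adjusted p = 0.00301). Eif2b1 was lower in FIH-KO at each oxygen level (log2 fold change -0.58 and -0.48).

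Of 13 tested cytosolic heat shock genes, 4 fell with hypoxia in WT and the others were not called by edgeR, where 16.9% of all tested genes rose and 15.5% fell, so that the number called is near the share of all genes. Hspa8, the constitutive cytosolic HSP70, had a log2 fold change of -0.82 (adjusted p = 0.00149), and Hsp90ab1, a constitutive HSP90, of -0.57 (adjusted p = 0.008), whereas the ER counterparts Hspa5 and Hsp90b1 rose. In FIH-KO 1 rose (Hspa4l, an HSP110 family member, 1.53-fold) and 1 fell (Bag3, a cochaperone of HSP70, log2 fold change -0.59). In FIH-KO relative to WT, 1 was higher and 4 were lower in normoxia, and 1 was higher and 3 were lower in hypoxia, against 28.2% and 28% of all tested genes called. The lower genes include Hspa4l (log2 fold change -1.69 and -1.35) and Stip1, which joins HSP70 to HSP90 (-0.80 and -0.61). Stip1 lies on chromosome 19, whose tested genes had medians of -0.38 and -0.45 in these comparisons, and the part of this in its lower level was not tested.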
